A study of Homo sapiens with 6 samples.

Results

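Accessibility was followed along 2.3 Mb of human chromosome 8 (GRCh38), from 135.4 kb before the MYC start to 2164.6 kb after it, which holds MYC, the long non-coding RNA gene PVT1 and the region far downstream where blood cells keep MYC enhancers. Members were all sites of the deposited count table whose midpoint lies in that interval, and no measured value was used to choose them. The rule gave 252 of the 181135 sites in the table, and 249 of them passed the filter on low counts. The 3 that did not pass lie in the gene-poor stretch between PVT1 and CCDC26.

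The libraries come from K562, an established human line from chronic myelogenous leukaemia, with the genotype given as WT in every group. Cells received 25 nM phorbol 12-myristate 13-acetate (PMA), an activator of protein kinase C that drives these cells towards a megakaryocyte-like state, for 0, 6 or 72 h, with 2 ATAC-seq libraries per time. The 0 h group is the untreated control, and the 72 h cultures also had their medium changed after 24 and 48 h. The labels do not say whether the 2 libraries of a time came from separate cultures, so p-values measure the spread between these libraries, which may be technical.

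MYC encodes a transcription factor that pairs with MAX on DNA and drives growth and proliferation, and its level falls as blood cells mature. Its expression in blood cells depends on enhancers that act over very long distances, and screens in K562 have placed such enhancers both within PVT1 and far downstream around CCDC26. PVT1 begins downstream of MYC, and its promoter is known to compete with that of MYC for the same enhancers. In ATAC-seq a transposase inserts adapters into open chromatin, so the reads over a site reflect its accessibility. No RNA was measured in these libraries, and a site is described here by its position and overlap with a gene interval, not as an enhancer shown to act on MYC.

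Reads in all listed sites came to between 12258890 and 35548737 per library, and the interval held between 15401 and 46677 of them. Both extremes in the interval were 6 h libraries, so that time had the largest gap in depth. Levels are given in CPM, counts relative to the library size after TMM scaling, and differences as log2 fold changes from edgeR's quasi-likelihood fit across all sites. A site was called at a Benjamini-Hochberg adjusted p under 0.05. The median over all 177759 tested sites stood at 0.05 at 6 h and 0.29 at 72 h against 0 h on this scale. With 4 other ways of scaling it ran from -0.11 to 0.35 at 6 h and from -0.04 to 1.26 at 72 h, so directions that turned with the scaling are named as such. Erythroid and megakaryocyte marker genes were open at their ends in this line, except that PF4 had no site. The erythroid regulator gene KLF1 measured 67.5 ± 6.10 CPM (SD, n = 2) in untreated cells at its strongest gene-end site, 26.2 ± 3.11 by 6 h and 17.5 ± 0.656 by 72 h. The megakaryocyte gene ITGA2B measured 25.9 ± 1.9, then 9.19 ± 2.16, then 14.4 ± 2.23 CPM. ITGB3, of the same integrin, measured 14.5 ± 2.37, 15.5 ± 2.25 and 9.74 ± 1.23, and GP9 11.2 ± 0.514, 5.56 ± 1.48 and 6.70 ± 0.731. From 6 to 72 h ITGA2B was called higher (0.623) and ITGB3 lower (-0.664) on the main scale. There the megakaryocyte genes did not share a course, and their directions were not tried with the other scalings.

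In the interval as a whole, 82 sites were higher at 6 h than at 0 h and 34 were lower. These are 32.9% and 13.7% of its tested sites, against 23.4% and 16.8% of all tested sites (46.6% called in all, against 40.1%). At 72 h against 0 h, 86 sites were higher and 72 lower, shares of 34.5% and 28.9% beside 38.2% and 29.2% over all sites (63.5% called, against 67.4%). Between 6 and 72 h, 34 sites were higher (13.7%, against 22.1% of all sites) and 73 were lower (29.3%, against 20.9%), with 43.0% called against 42.9%. The 72 h shares against untreated cells were thus near the background, whereas the early rises and the late falls were more frequent here than over the whole table. Both splits at 72 h depended on the scaling. Against 0 h, 124 sites were higher and 51 lower with library totals, 63 and 82 with loess offsets, and 153 and 32 with TMM factors from sites that had a peak in every library. For the late step, library totals gave 56 higher and 48 lower (22.5% and 19.3%, against 32.1% and 11.5%). Those TMM factors gave 80 and 23 (32.1% and 9.2%, against 43.4% and 5.23%). The share lower in the late step was above that of all tested sites under all 5 scalings. At 6 h rises outnumbered falls under all 5. Loess offsets gave 66 higher and 48 lower (26.5% and 19.3%, against 19.0% and 21.8%). At the other end, those TMM factors gave 107 and 23 (43.0% and 9.2%, against 29.6% and 8.7%). The number called from 6 to 72 h, 107 in the main fit, was smaller without the second 6 h library or the second 72 h library. Without the first 72 h library fewer sites were called lower in that late step. Fewer cells with an open site and less opening per cell cannot be told apart in these libraries.

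**Figure D1:**
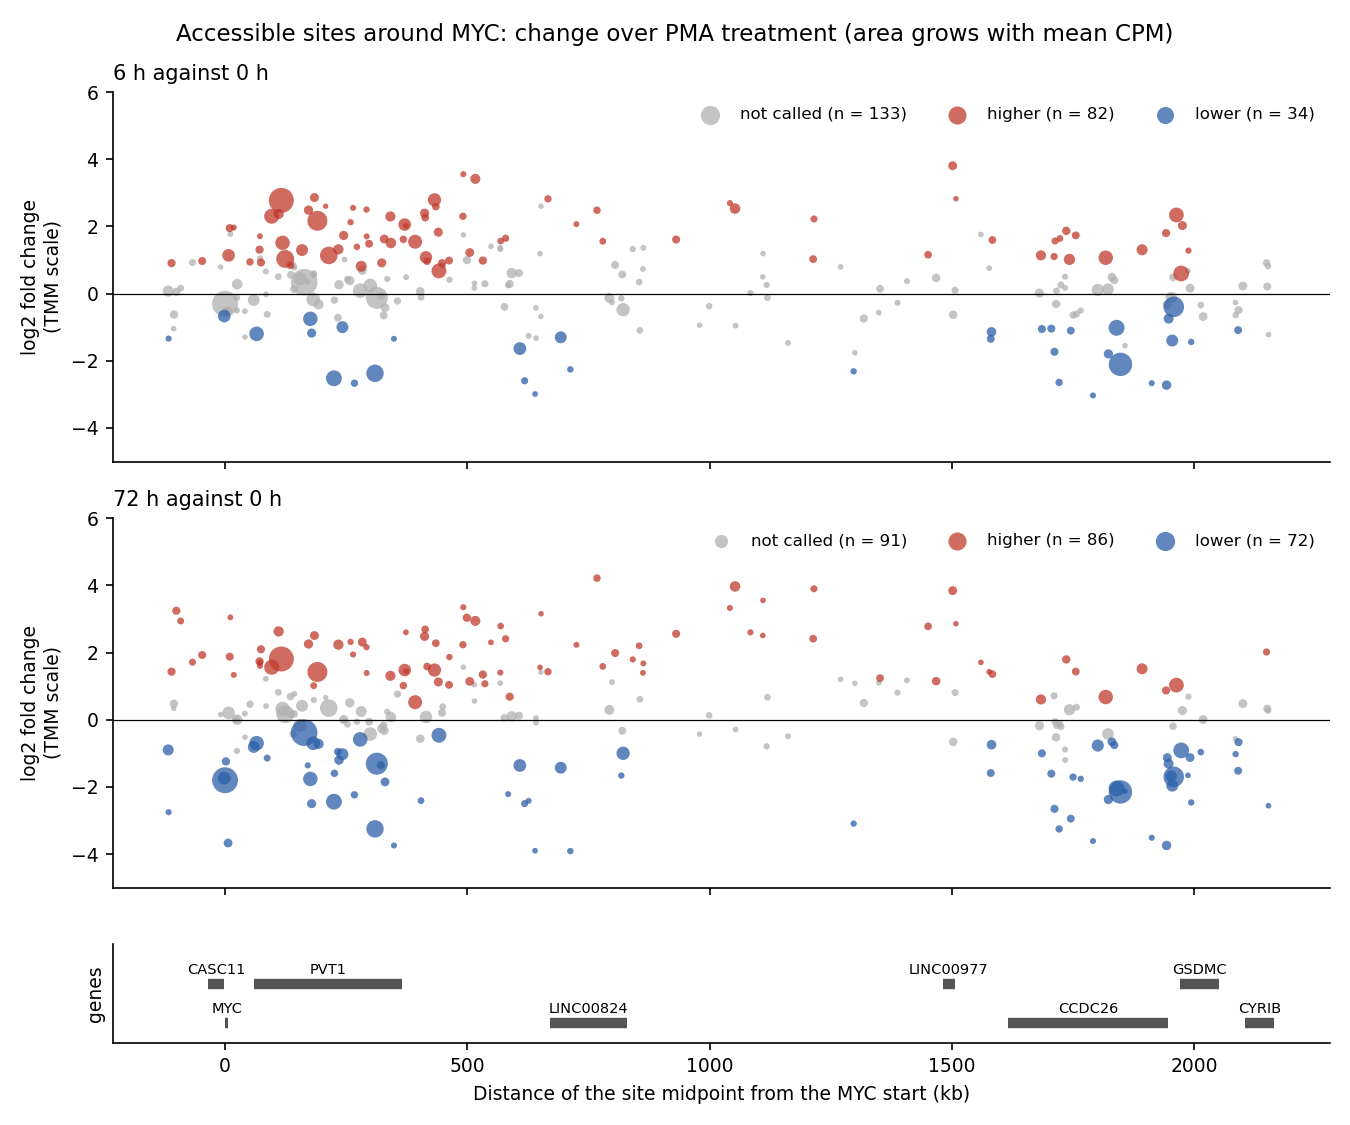
Log2 fold change of each tested site (points, coloured by call) against its distance in kb from the MYC start, at 6 h and at 72 h against 0 h, with gene intervals drawn underneath. Rises outnumber falls between PVT1 and CCDC26, and 18 of 36 sites within CCDC26 and 13 of 23 beyond it are lower at 72 h on the TMM scale (9 and 5 with TMM factors from sites with a peak in every library). On the TMM scale 29.2% of all tested sites are lower at 72 h.

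The MYC start was among the most accessible sites in untreated cells, was not called changed at 6 h in the main fit and was lower at 72 h. The site over it (chr8:127735050-127736550, spanning the gene start in the RefSeq annotation) had 69.5 and 71.9 CPM at 0 h, 50.9 and 63.5 at 6 h, then 19.4 and 21.2 at 72 h. Both 72 h libraries lay far below the other 4, and the 6 h libraries lay below the 0 h libraries with a wider spread. At 6 h the difference of -0.30 ± 0.15 (log2, SE) was not called (adjusted p = 0.104). By 72 h the site had fallen by 1.80 ± 0.15 against 0 h (adjusted p = 2.21e-09) and by 1.499 ± 0.149 against 6 h (adjusted p = 3.24e-07). The 72 h falls were called under all 5 scalings but differed in size: against 0 h they ran from -1.98 to -0.42, and against 6 h from -1.53 to -0.49, smallest with loess offsets. The 6 h value ran from -0.45 to 0.07 and was called lower under 1 scaling. It was also called lower with DESeq2 (-0.45, adjusted p = 0.0418), a 50-count filter (-0.37, adjusted p = 0.0297) and without the second 6 h library (-0.53, adjusted p = 0.0376). The 6 h call at the MYC start thus depended on the processing.

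On the main scale accessibility fell at most gene ends at 72 h, so the MYC start was set beside them. Of 19126 tested sites lying no more than 1 kb from either end of protein-coding genes, 68.7% were lower at 72 h than at 0 h and 60.6% lower than at 6 h. Their median log2 fold changes were -0.37 at 6 h, -1.16 at 72 h and -0.79 from 6 to 72 h. The direction at MYC was therefore the common one on this scale, but 8.54% of these sites had a lower value than the MYC start at 72 h against 0 h, and 3.53% from 6 to 72 h. At 6 h, by contrast, 56.71% of gene-end sites had a lower value than MYC. The share of gene ends called lower at 72 h was 34.2% with TMM factors from sites with a peak in every library (median -0.19) and 52.4% with loess offsets (median -0.48). With loess offsets, which remove a trend with the level of a site, 53.2% of gene-end sites were lower than the MYC start at 72 h and 31.0% for the late step. The place of MYC among gene ends therefore depended on that choice, and it carries no test.

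Around the gene body, changes were not uniform. The site at -1.2 kb, before the start and at the near end of the non-coding gene CASC11, measured 14.6 and 17.6 CPM at 0 h, 9.29 and 10.8 at 6 h, then 5.38 and 4.27 at 72 h. It was lower at 6 h (-0.67 ± 0.21, adjusted p = 0.0150) and at 72 h (-1.74 ± 0.21, adjusted p = 3.80e-07), and the early call was lost under 1 of the 5 scalings, without the second 0 h library (-0.52) and without the first 6 h library (-0.57). A site 6.7 kb after the start, still inside the MYC interval, had 4.16 and 9.27 CPM at 0 h, 3.58 and 5.66 at 6 h, then 0.517 and 0.542 at 72 h. That site overlapped between 0 and 6 h and dropped by 3.67 ± 0.38 at 72 h (adjusted p = 3.54e-08), or by 2.96 without the second 0 h library. In the other direction, a site at the far end of the gene (7.7 kb, chosen after its values were seen) held 5.98 and 8.07 CPM at 0 h, 15.3 and 15.8 at 6 h, then 7.76 and 8.54 at 72 h, with a 6 h change of 1.14 (adjusted p = 0.000215).

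Upstream of MYC, accessibility was sparse: 10 sites took 1.63 ± 0.174% of the interval's counts at 0 h (SD, n = 2), 1.58 ± 0.228% at 6 h and 3.55 ± 0.138% at 72 h. One of these sites, at -100.1 kb from the MYC start (chr8:127634772-127635883), opened late. It measured 0.715 and 0.908 CPM at 0 h, 1.28 and 0.632 at 6 h, then 7.66 and 7.99 at 72 h. Only the 72 h libraries stood apart, by 3.24 ± 0.34 against 0 h (adjusted p = 4.26e-08), and only they had a peak there. The strongest upstream site, at -116.8 kb, was not called at 6 h (0.07 ± 0.22) and was lower at 72 h (-0.90 ± 0.22, adjusted p = 0.00134), a direction that turned to 0.073 with TMM factors from sites with a peak in every library.

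The PVT1 gene held 68 sites and the largest share of the interval's reads. At 6 h 28 of its sites were higher and 8 lower (41.2% and 11.8%, against 23.4% and 16.8% of all tested sites). At 72 h 18 were higher and 21 lower against 0 h (26.5% and 30.9%, against 38.2% and 29.2%). From 6 to 72 h 5 were higher and 31 lower (7.4% and 45.6%, against 22.1% and 20.9%). With TMM factors from sites with a peak in every library the counts became 42 higher and 8 lower at 72 h, and 15 and 9 for the late step. The gene's own start was not among the early rises. Its site (chr8:127794211-127795902) had 11.6 and 10.2 CPM at 0 h, 8.10 and 10.8 at 6 h, then 6.47 and 5.97 at 72 h, with -0.19 ± 0.22 at 6 h (adjusted p = 0.515) and -0.81 ± 0.22 at 72 h (adjusted p = 0.00241). With TMM factors from sites with a peak in every library the 72 h value turned to 0.16. The MYC start thus carried more reads than the PVT1 start in each of the 6 libraries, and the gap was narrower at 72 h: per 100 counts at the MYC start, the PVT1 start had 16.7 and 14.2 in the 0 h libraries, 15.9 and 16.9 in the 6 h libraries and 33.4 and 28.1 in the 72 h libraries.

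Inside PVT1 a group of sites rose sharply at 6 h. The site 116.5 kb from the MYC start (chr8:127851207-127852594) had 11.1 and 13.2 CPM at 0 h, 73.0 and 93.0 at 6 h, then 36.99 and 48.1 at 72 h. It stood 24th in the interval by mean level at 0 h and first at both 6 and 72 h. The rise came to 2.77 ± 0.18 at 6 h (adjusted p = 2.04e-10) and 1.81 ± 0.17 at 72 h (adjusted p = 1.25e-08), both called under all 5 scalings. The drop of 0.97 ± 0.16 from 6 to 72 h (adjusted p = 6.38e-05) was called under 3 of them and turned to 0.044 with loess offsets.

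A similar course was measured 190.9 kb from MYC (chr8:127925929-127926780), with 8.64 and 12.3 CPM at 0 h, 40.4 and 53.7 at 6 h, then 24.2 and 32.2 at 72 h. Here the 3 times did not overlap. The rise was 2.17 ± 0.20 at 6 h (adjusted p = 2.32e-08) and 1.42 ± 0.20 at 72 h (adjusted p = 1.79e-06), while the late step of -0.74 ± 0.18 (adjusted p = 0.00262) was called under 2 of the 5 scalings. It was -0.38 with library totals, -0.07 with TMM factors from sites with a peak in every library and 0.073 with loess offsets, and it was also not called without the second 6 h library (-0.47) or the first 72 h library (-0.50). Smaller and shorter rises were seen at 124.5 and 214.4 kb. The first had 18.2 and 14.4 CPM at 0 h, 33.3 and 33.2 at 6 h, then 17.1 and 19.4 at 72 h, so the 72 h libraries were back among the untreated ones. The second had 10.98 and 18.2, then 26.5 and 37.5, then 16.8 and 20.5 CPM. Their 6 h changes were 1.03 ± 0.17 (adjusted p = 5.49e-05) and 1.14 ± 0.21 (adjusted p = 0.000212), and neither was called at 72 h against 0 h on the main scale, though both were called higher under 3 of the 5 scalings.

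Weak sites of PVT1 also opened. One at 184.8 kb went from 1.24 and 0.621 CPM at 0 h to 4.01 and 8.51 at 6 h, then 4.81 and 5.40 at 72 h, a 6 h rise of 2.86 ± 0.38 (adjusted p = 3.94e-06), or 2.10 without the second 6 h library. A peak was called there in the deeper 6 h library and both 72 h libraries. At 245.1 kb the site had 2.14 and 2.91 CPM at 0 h, 6.65 and 10.0 at 6 h, then 2.51 and 2.62 at 72 h. At 328.8 kb the values were 2.34 and 2.53, then 6.56 and 8.35, then 1.89 and 2.004 CPM. On the main scale both were higher at 6 h alone, by 1.73 ± 0.29 (adjusted p = 4.88e-05) and 1.63 ± 0.28 (adjusted p = 7.48e-05). Their 72 h values against 0 h were not called on that scale. With TMM factors from sites with a peak in every library the site at 245.1 kb was called higher at 72 h (0.975). With loess offsets the site at 328.8 kb was called lower (-0.92). Both sites were picked for turning at 6 h, so their course describes the choice.

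Other strong PVT1 sites closed over the same hours. The site 309.7 kb from MYC (chr8:128044663-128045536) had 48.5 and 50.5 CPM at 0 h, 7.67 and 11.04 at 6 h, then 5.20 and 5.21 at 72 h. It was the fourth strongest of the interval in untreated cells and the 60th at 72 h. Its falls were 2.37 ± 0.19 at 6 h (adjusted p = 2.80e-09) and 3.25 ± 0.19 at 72 h (adjusted p = 6.76e-11) on the log2 scale. At 225.0 kb (chr8:127959951-127960899), where the microRNA gene MIR1205 lies within the site, 40.8 and 36.0 CPM at 0 h became 5.03 and 7.90 at 6 h, then 7.73 and 6.41 at 72 h. On this scale nearly the whole difference was there at 6 h (-2.52 ± 0.21, adjusted p = 6.35e-09), and the 72 h libraries overlapped the 6 h libraries. Under 2 scalings the site was called higher from 6 to 72 h, by 0.63 (adjusted p = 0.0211) and 0.76 (adjusted p = 0.00609). A weaker site at 267.3 kb fell from 5.20 and 4.59 CPM to 0.597 and 0.854 at 6 h (-2.67 ± 0.40, adjusted p = 1.61e-05). All of these falls against 0 h were called under each of the 5 scalings.

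Between the closing sites at 309.7 kb and the end of PVT1 lay a site that did not close early. At 313.5 kb (chr8:128048216-128049700, with MIR1207 inside) the libraries gave 44.4 and 47.0 CPM at 0 h, 36.98 and 46.4 at 6 h, then 17.8 and 19.1 at 72 h. The 0 and 6 h libraries overlapped (-0.13 ± 0.15, adjusted p = 0.541), and the fall of 1.31 ± 0.16 at 72 h (adjusted p = 2.39e-07) was called under 4 of the 5 scalings. The strongest PVT1 site, at 163.6 kb (chr8:127898276-127899884), measured 54.3 and 49.5 CPM at 0 h, 59.6 and 71.5 at 6 h, then 37.8 and 41.7 at 72 h. It was not called at 6 h on the main scale (0.34 ± 0.14, adjusted p = 0.0642). Under 3 of the 5 scalings it was called higher at 6 h, by 0.474 with library totals, 0.745 with loess offsets and 0.634 with TMM factors from sites with a peak in every library. Its 72 h value of -0.38 ± 0.14 (adjusted p = 0.0220) turned positive under 3 scalings, between 0.11 and 1.07, so no direction is given for it.

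**Figure D2:**
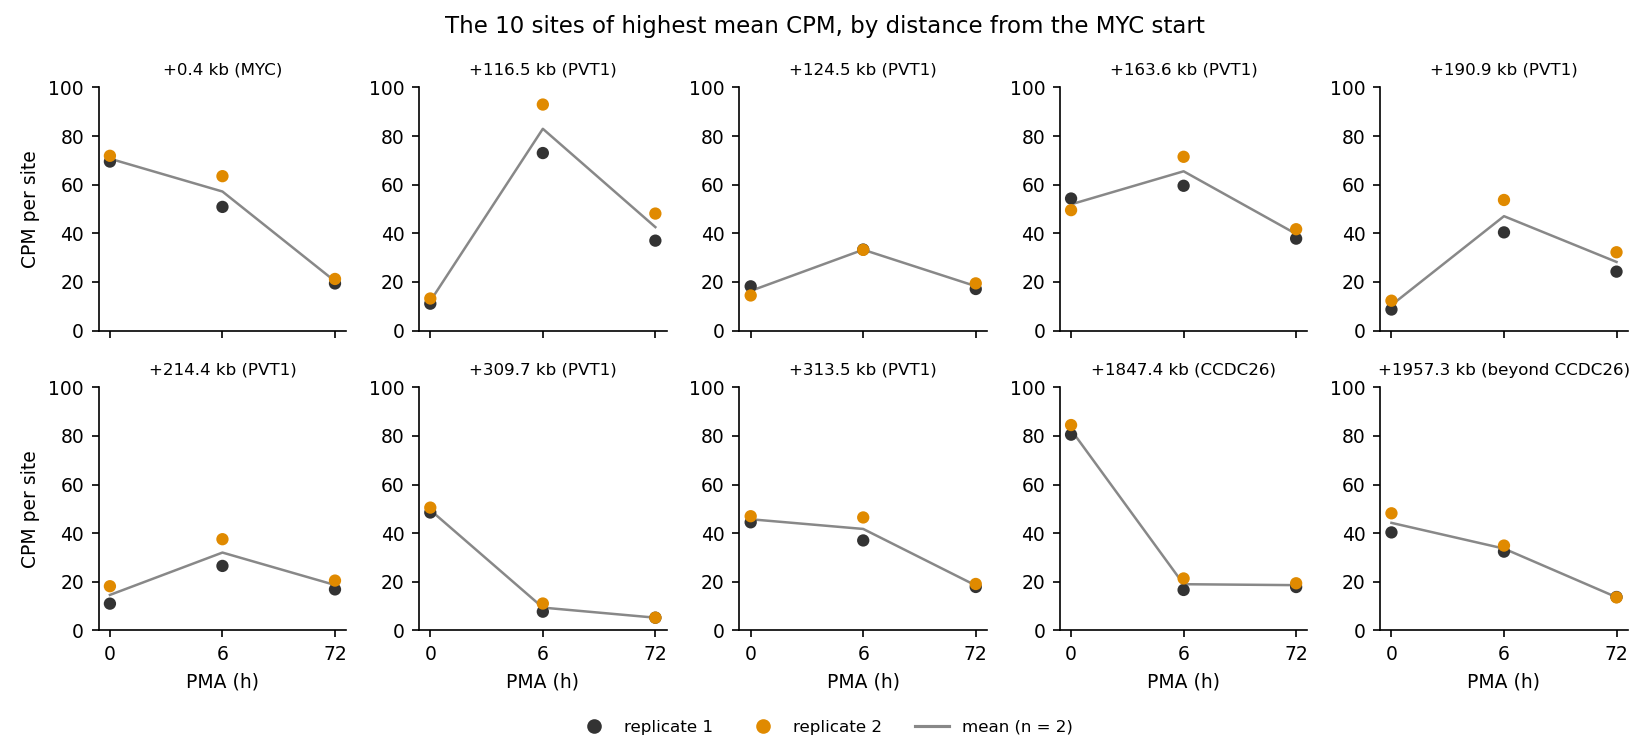
CPM (TMM-scaled) of the 10 sites with the highest mean level in the interval, with a point per library and a line joining the means of the times. The sites at 116.5 and 190.9 kb lie highest at 6 h, those at 309.7 and 1847.4 kb drop by 6 h, and the MYC start is lowest at 72 h.

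The stretch from PVT1 to CCDC26 is a gene desert with a few non-coding genes. It held 98 of the interval's 249 tested sites, 34 of its 82 rises at 6 h and 52 of the 86 at 72 h. At 6 h 34 of the 98 were higher and 8 lower (34.7% and 8.2%, against 23.4% and 16.8% of all tested sites). At 72 h 52 were higher and 14 lower against 0 h (53.1% and 14.3%, against 38.2% and 29.2%). Over the 5 scalings the 72 h count of higher sites ran from 33 to 76, and rises outnumbered falls in each. The lowest count was 33.7% with loess offsets, against 29.7% of all tested sites. The highest was 77.6% with TMM factors from sites with a peak in every library, against 57.8%. The sites were weak, with a median level of 1.52 CPM against 3.996 CPM in PVT1, both averaged over the 3 times. At 432.4 kb (chr8:128167371-128168341) the values were 3.77 and 2.77 CPM at 0 h, 19.5 and 25.0 at 6 h, then 8.30 and 9.74 at 72 h, a rise of 2.79 ± 0.24 (adjusted p = 6.92e-09) followed by a drop of 1.31 ± 0.21 (adjusted p = 3.29e-05), both called under all 5 scalings. At 516.6 kb a site went from 1.04 and 0.764 CPM to 10.3 and 8.82 at 6 h, then 6.49 and 7.19 at 72 h (3.41 ± 0.30 at 6 h, adjusted p = 1.34e-08). At 666.5 kb the course was 0.845 and 0.382, then 4.69 and 3.79, then 1.60 and 1.58 CPM. Both of these had a peak in all 4 treated libraries and in neither untreated one.

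The largest 6 h rise among called sites of at least 1 CPM was far into the desert, 1501.3 kb from MYC within the non-coding gene LINC00977 (chr8:129236420-129237071). It had 0.455 and 0.382 CPM at 0 h, from 7 and 8 counts, then 5.88 and 5.82 at 6 h, then 5.79 and 6.20 at 72 h. All 4 treated libraries sat at one level. The change was 3.80 ± 0.36 at 6 h (adjusted p = 2.97e-08) and 0.04 ± 0.24 from 6 to 72 h (adjusted p = 0.915). Across the scalings that last value ran from -0.07 to 0.71.

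Other desert sites gained most of their reads after 6 h. At 1052.4 kb (chr8:128787454-128788222) the libraries had 0.845 and 0.908 CPM at 0 h, 3.66 and 6.17 at 6 h, then 13.0 and 14.7 at 72 h. That site moved from 175th of the interval in untreated cells to 11th at 72 h, with 2.53 ± 0.33 at 6 h (adjusted p = 2.32e-06) and a further 1.44 ± 0.24 by 72 h (adjusted p = 7.78e-05). At 767.6 kb, inside the non-coding gene LINC00824, 0.260 and 0.287 CPM at 0 h became 1.62 and 1.52 at 6 h, then 5.30 and 5.07 at 72 h (4.21 ± 0.41 at 72 h, adjusted p = 1.37e-08). At 1215.2 kb the 0 h libraries held 9 and 0 counts, and the 72 h libraries 144 and 169 counts (3.72 and 3.99 CPM). The fitted 72 h change there was 3.90 ± 0.62, but 9.82 without the first 0 h library and 2.71 without the second, so its size rests on a near-empty control.

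Falls in the desert were few. The site at 712.7 kb, also inside LINC00824, had 2.66 and 3.06 CPM at 0 h, 0.767 and 0.506 at 6 h, then 0.310 and 0.0707 at 72 h, a fall of 3.91 ± 0.52 at 72 h (adjusted p = 1.00e-06). The 72 h libraries held only 12 and 3 counts there, and the value was -5.25 without the first and -3.19 without the second. The site at 618.3 kb had 7.15 CPM in the first 0 h library and 1.53 in the second, so its 6 h value of -2.60 ± 0.57 (adjusted p = 0.000943) rests on that first library. Without it the value was -1.18 (adjusted p = 0.106), and at 72 h -1.04 (adjusted p = 0.0868). The strongest desert site, at 441.6 kb, measured 14.8 and 12.5 CPM at 0 h, 20.8 and 22.5 at 6 h, then 9.47 and 10.2 at 72 h. Its 6 h rise was 0.68 ± 0.19 (adjusted p = 0.00579), or 0.56 and not called without the second 6 h library, and its 72 h value of -0.46 ± 0.18 turned positive under 2 scalings.

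Within CCDC26, where the far downstream region lies, 10 of 36 sites were higher and 11 lower at 6 h. These are 27.8% and 30.6%, against 23.4% and 16.8% of all tested sites. At 72 h 6 were higher and 18 lower against 0 h, so 16.7% were higher against 38.2% of all tested sites, and 18 of 36 lower against 29.2%. That last split ran from 3 higher and 25 lower with loess offsets to 12 and 9 with TMM factors from sites with a peak in every library. The strongest site of the whole interval in untreated cells was here, 1847.4 kb from the MYC start (chr8:129581676-129583922). It had 80.5 and 84.5 CPM at 0 h, 16.6 and 21.3 at 6 h, then 17.8 and 19.4 at 72 h. All 4 treated libraries lay at about one level, well below both untreated libraries. The fall was 2.11 ± 0.16 at 6 h (adjusted p = 1.53e-09) and 2.15 ± 0.16 at 72 h (adjusted p = 5.06e-10), called under all 5 scalings, and the late step was -0.04 ± 0.16 (adjusted p = 0.844). Under 2 scalings that late step was called higher, by up to 0.88.

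Neighbouring sites of CCDC26 did not all move together. The site 1839.4 kb from MYC, chosen after its values were seen, fell from 28.9 and 31.9 CPM to 12.1 and 17.5 at 6 h, then 7.40 and 7.31 at 72 h. At 1942.5 kb the values were 13.8 and 9.84 CPM, then 2.39 and 1.42, then 0.957 and 0.802, a fall of 2.72 ± 0.31 at 6 h (adjusted p = 3.43e-07) and 3.74 ± 0.30 at 72 h (adjusted p = 1.69e-09). At 1720.9 kb 4.48 and 6.02 CPM became 1.11 and 0.696 and then 0.310 and 0.778. Opposed to these, the site at 1817.0 kb, also chosen after its values were seen, went from 8.38 and 9.65 CPM to 15.0 and 22.4 at 6 h, then 14.5 and 14.4 at 72 h. At 1722.5 kb, picked for its turn at 6 h, the 0 h libraries disagreed (1.62 and 0.334 CPM) and the 6 h change was 1.64 ± 0.49 (adjusted p = 0.0110). It was 3.03 without the first 0 h library, and not called without the second (0.83) or without the second 6 h library (1.51).

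Beyond CCDC26, 4 of 23 sites were higher and 5 lower at 6 h (17.4% and 21.7%, against 23.4% and 16.8% of all tested sites). At 72 h 2 were higher and 13 lower (8.7% and 56.5%, against 38.2% and 29.2%). With TMM factors from sites with a peak in every library the 72 h counts were 9 and 5. The strongest, 1957.3 kb from MYC and in no annotated gene (chr8:129692121-129693333), had 40.3 and 48.2 CPM at 0 h, 32.4 and 34.9 at 6 h, then 13.7 and 13.6 at 72 h. The 3 times did not overlap. It was lower by 0.39 ± 0.15 at 6 h (adjusted p = 0.0456), which was called under 2 scalings and lost without the second 0 h library (-0.26) or either 6 h library (-0.34 and -0.51), and lower by 1.70 ± 0.16 at 72 h (adjusted p = 8.38e-09), which was called under all 5. Within the gene GSDMC, which encodes a gasdermin, a site at 1975.2 kb was chosen for its turn: 2.27 and 1.86 CPM at 0 h, 8.78 and 8.03 at 6 h, then 2.97 and 2.004 at 72 h.

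Likeness to the MYC start was measured for the other sites as well. Of these, the one at 1957.3 kb had the course most like the MYC start, with a root mean square difference of 0.1241 on the log2(CPM + 0.5) scale over the 6 libraries after each site's mean was removed. The next were at 330.3 kb (0.1971) and 313.5 kb (0.2041), both in PVT1. This ranking describes 6 libraries that share their depth and scaling, and says nothing of shared control.

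Shares of the interval's own reads do not depend on the scaling factor given to each library, and they moved away from MYC and CCDC26. The shares can still carry a trend with the level of a site, of the kind that loess offsets remove. Sites within 5 kb of MYC held 8.77 ± 0.563% of the interval's counts at 0 h, 6.80 ± 0.429% at 6 h and 4.15 ± 0.057% at 72 h (SD, n = 2). CCDC26 went from 20.3 ± 0.659% to 12.3 ± 0.198% by 6 h and stayed at 12.3 ± 0.325%. The desert between PVT1 and CCDC26 went from 16.5 ± 3.41% to 21.2 ± 2.51% and 29.0 ± 0.740%. PVT1 itself took 40.1 ± 0.682%, 46.3 ± 2.77% and 41.9 ± 1.22%, the highest share at each time. For MYC, for CCDC26 against untreated cells and for the desert, the libraries of the times compared did not overlap, although the first 0 h library (18.95%) and the second 6 h library (19.45%) came close in the desert. With 2 libraries a time, an exact two-sided permutation test cannot go below p = 0.33, so no test was made.

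**Figure D3:**
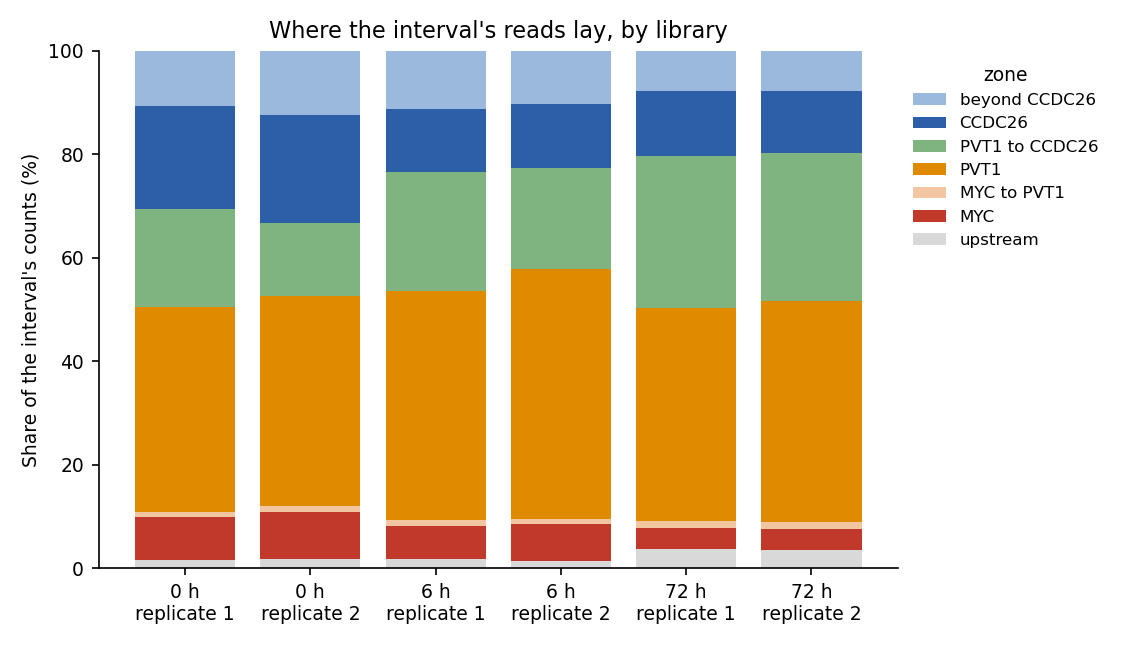
Share of the interval's counts in each zone for the 6 libraries, as stacked bars in percent from 0. The CCDC26 part shrinks by 6 h, from 20.3% to 12.3%, the MYC part shrinks over both steps, and the desert between PVT1 and CCDC26 grows to 29.0% at 72 h.

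A ratio to the MYC start, taken within a library, is also free of the library's scaling factor, and it shows only unequal change of the pair of sites. Loess offsets, which differ with the level of a site, would change the ratio. Per 100 counts at the MYC start, the site at 1847.4 kb had 116 and 118 in untreated cells, 32.7 and 33.6 at 6 h and then 92.0 and 91.2. The ratio was lowest in both 6 h libraries, and the 72 h libraries lay nearer to the untreated ones. At 309.7 kb the ratio was 69.7 and 70.2, then 15.1 and 17.4, then 26.8 and 24.6. At 116.5 kb it was 15.9 and 18.3, then 144 and 146, then 191 and 227. In each of these the 2 libraries of a time lay closer to each other than to any library of another time.

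Some sites kept more even ratios. The site at 1957.3 kb had 57.9 and 67.0 per 100 at 0 h, then 63.7 and 54.9, then 70.8 and 63.9. The times overlapped there. The site at 313.5 kb had 63.9 and 65.3, then 72.7 and 73.1, then 92.1 and 89.9. At 163.6 kb the ratio grew at each time, from 78.1 and 68.9 to 117 and 113 and then 195 and 196. Exact 95% intervals around these ratios cover counting error only, and were for example 82.8 to 102 for the site at 1847.4 kb in the first 72 h library.

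**Figure D4:**
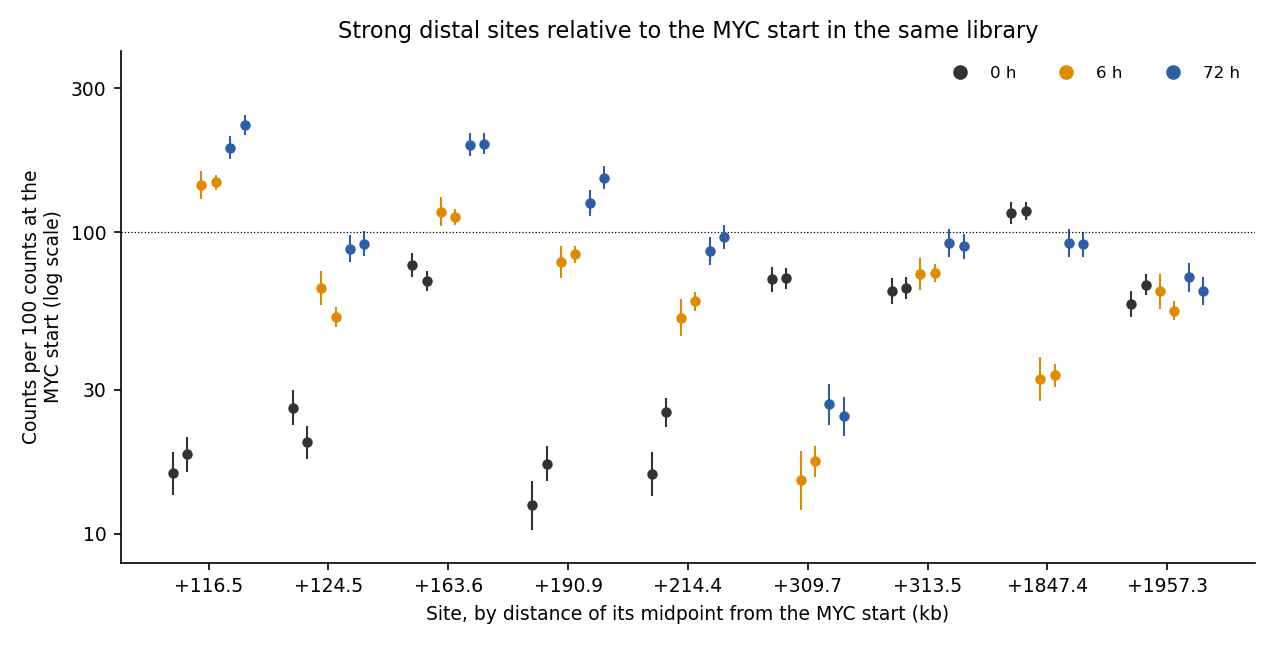
Counts at selected sites per 100 counts at the MYC start in the same library, on a log axis, with exact 95% intervals that cover counting error only. The site at 1847.4 kb dips at 6 h to about 33 and returns near 92, while those at 116.5 and 163.6 kb climb at each time.

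The authors' peak lists, called separately in each library, placed more peaks here over time. The interval had 76 and 95 peak summits at 0 h, 100 and 136 at 6 h, then 184 and 179 at 72 h. Lists grew over the whole genome as well, so these stayed between 0.1228% and 0.1531% of each library's peaks. Of the 252 sites, 43 had a peak in all 6 libraries and 31 in none, 36 had one in both 72 h libraries only, 24 in the 4 treated libraries only, and 6 in both 0 h libraries only. The latter include the sites at 712.7, 1720.9 and 1942.5 kb. The whole lists held 61873 and 69152 peaks at 0 h but 138914 and 142305 at 72 h. Shares of these patterns over all sites were not taken, so the counts cannot be read as particular to the interval.

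The position of the highest peak differed between times at the strongest downstream site. Within the site at 1847.4 kb the peak with the highest fold enrichment, the authors' value, had its summit at 1848.00 and 1847.91 kb from the MYC start at 0 h. At 6 h it lay at 1846.40 and 1846.53 kb, and at 72 h at 1846.77 and 1846.90 kb. Each library had 2 or 3 peaks in this wide site. These values do not show whether a peak shifted or another became the highest. At the site at 1957.3 kb the summits lay between 1956.87 and 1957.30 kb, and at 309.7 kb between 309.62 and 309.93 kb.

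The authors' deposited table gives its own log2 fold changes for these sites. They had the same sign as the fit in all 116 sites called at 6 h and all 158 called at 72 h. That table puts 57 of the 252 sites in a changing class, and these are the sites there with adjusted p below 0.05 whose log2 fold change exceeded 2 in size. The direction in the class name matched the sign of its own 72 h fold change in 30 of the 57 (52.63%), and in 58.93% of such sites over the whole table. The class names were therefore not used.

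The partners and rivals of MYC were examined next. MAX is the shared partner, the MXD proteins, MXI1 and MNT compete with MYC for it, and MLX, MLXIP and MLXIPL form a parallel branch that answers to glucose. Of the 12 genes listed, 11 had a site within 1 kb of a gene end, and MGA had none. At the strongest site of each gene, 8 of 11 were lower at 6 h and 10 of 11 at 72 h, and none was higher. Among all gene-end sites 36.2% were lower and 9.95% higher at 6 h, and 68.7% and 12.3% at 72 h. That set also holds weaker sites of the same genes, so the sets are unlike. The median change at the 11 strongest sites was -0.398 at 6 h and -1.501 at 72 h. At the 9771 gene-end sites with a mean of at least 10 CPM it was -0.427 and -1.374. Over all 18 sites of the family, 2 were higher and 9 lower at 6 h, and 2 higher and 13 lower at 72 h. The counts rested on the scaling: at 6 h only 1 strongest site was lower with loess offsets and none with TMM factors from sites with a peak in every library, and at 72 h 3 and 8 were, with 1 higher under loess offsets. Without the second 0 h library or the first 6 h library, 2 of the 11 were lower at 6 h.

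MAX had 70.6 and 63.1 CPM at 0 h, 44.1 and 44.4 at 6 h, then 22.2 and 22.0 at 72 h at its strongest site. Its falls were 0.59 ± 0.14 (adjusted p = 0.00191) and 1.60 ± 0.14 (adjusted p = 5.67e-09). The repressor gene MXD1 had 167 and 187, then 125 and 141, then 46.2 and 63.2 CPM, and MXD4 had 148 and 186, then 123 and 113, then 43.0 and 53.2 CPM. MYC's relative MYCL went from 55.0 and 52.4 CPM to 43.3 and 39.5 and then 22.3 and 20.3. MYCN, the neural relative, had one weak site of 4.35 and 4.06, then 5.03 and 3.89, then 3.13 and 2.92 CPM and was not called at either time. Falls at these strongest sites were in the direction taken by most gene ends at 72 h on the main scale.

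**Figure D5:**
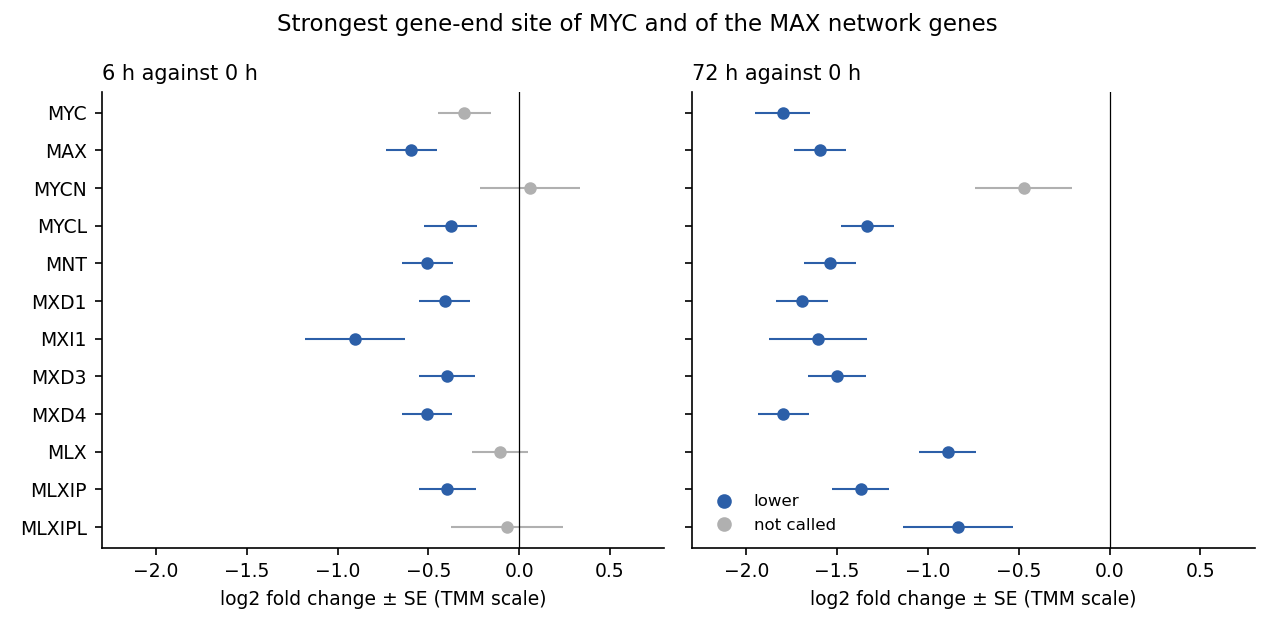
Log2 fold change ± SE at the strongest gene-end site of MYC and of 11 genes of its network, at 6 and at 72 h against 0 h, on the TMM scale. At 72 h 10 of the 11 are called lower (3 with loess offsets), and MYCN is not called at either time.

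Genes whose strongest gene-end site followed the same course as the MYC start were also ranked, among 13784 genes with a mean of at least 2 CPM. The closest was TTI2, which encodes a cofactor of PI3K-like kinases, with a root mean square difference of 0.0482 over the 6 libraries. Its time means were 87.9, 70.7 and 25.0 CPM. YWHAG, a 14-3-3 protein gene (0.0541), a site shared by AFF1 and C4orf36 (0.0702), NAMPT, which makes the enzyme of NAD salvage (0.0703), and ZC3H4 (0.0760) came next. All 5 sites had 72 h log2 fold changes between -1.89 and -1.72, close to that of MYC. The ranking chose them for this likeness, so it is not a separate result.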

How the data were processed

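The 6 ATAC-seq libraries (K562, 25 nM PMA for 0, 6 or 72 h, 2 per time) were made by Omni-ATAC, per the labels. The deposited table gives whole-number read counts per site and library, not normalized, on hg38. The submitters' processing notes name Trim Galore 0.4.3, BWA 0.7.17, SAMtools 1.9, deepTools 3.0.1, MACS2, bedtools 2.26 and DESeq, with no settings. Whether read ends were shifted for the transposase is not given in the sources used here. The same table holds the authors' log2 fold changes and p-values, adjusted. The authors' peak lists, 1 per library, have no header and give a fold enrichment, a score, and the −log10 of p and q, which were used only to rank and filter peaks.

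The 252 sites and all lists were chosen with earlier results of these data known. Counts of all 181135 sites were fitted with edgeR 4.0.16 in R 4.3.3 (quasi-likelihood, TMM, 3 time groups). The filter at a minimum of 10 counts removed 3376 sites and left 177759. The biological coefficient of variation was 0.166. The fit was also run on simulated data with few changed sites, as many up as down, and the same spread for all sites. That run therefore cannot test the scaling of these data. Adjustment was Benjamini-Hochberg over all tested sites, with a call at 0.05. CPM is relative to the TMM-scaled library. Zones were set by midpoint, with MYC meaning within 5 kb of the gene. Replicates differed by more than sampling noise, at 4.95, 4.41 and 3.50 chi-square per degree of freedom at 0, 6 and 72 h. Sites named were those at the MYC and PVT1 starts, the 10 highest by mean CPM, the highest of each zone, the 5 largest rises and falls of at least 1 CPM at each time, and up to 4 that turned at 6 h. Alternatives were other scalings, filters, thresholds, DESeq2 1.42.0, a replicate block, the libraries of 2 times alone, and leaving out each library.

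Gene positions were taken from a RefSeq table (GRCh38.p14), which gives no exons or strand. Exact and Wilson intervals are at 95%. No sequence is printed. Results use no other column of per-sample values.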

Additional observations from a re-analysis of the deposited data

How the results depend on the processing

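Of the calls at named sites, none turned under RLE scaling, DESeq2, another filter, the replicate block or the libraries of 2 times alone. Apart from the MYC start, 3 calls were lost without a turn with DESeq2. These were 1215.2 kb at 6 h and for the late step, and 1722.5 kb at 6 h. Library totals lost 8 in this way, loess offsets 9, and TMM factors from sites with a peak in every library 14. With TMM factors from sites with a peak in every library, the 72 h change against 0 h turned to 0.073 at -116.8 kb, 0.16 at 59.6 kb, 0.58 at 163.6 kb and 0.50 at 441.6 kb, and the step from 6 to 72 h turned to 0.053 at 59.6 kb. With library totals the 72 h change became 0.11 at 163.6 kb and 0.036 at 441.6 kb. Loess offsets gave 1.07 at 163.6 kb for 72 h, and 0.33 at 163.6, 0.044 at 116.5 and 0.073 at 190.9 kb for the late step. The MYC start at 6 h, not called in the fit reported, became -0.45 with RLE scaling (adjusted p = 0.0208), -0.37 with a 50-count filter (adjusted p = 0.0297) and -0.45 with DESeq2 (adjusted p = 0.0418), and 0.068 with loess offsets (adjusted p = 0.704). Leaving out each library gave -0.53 to -0.15, called only without the second 6 h library (adjusted p = 0.0376). At an adjusted p under 0.01 with an absolute log2 fold change above 1, 76 sites were called at 6 h (54 higher, 22 lower) and 61 from 6 to 72 h (22 higher, 39 lower). TMM factors from sites with a peak in every library gave 153 higher and 32 lower at 72 h against 0 h. For the late step, library totals gave 56 higher and 48 lower, those TMM factors 80 and 23, and DESeq2 19 higher. Without one library the late step had 62 to 120 sites called, 18 to 39 higher and 44 to 81 lower, with 65 without the second 6 h library and 62 without the second 72 h library. The cause of these differences was not tested. Without the MYC zone, PVT1 held 43.98%, 49.64% and 43.74% of the interval's counts at 0, 6 and 72 h, and CCDC26 22.29%, 13.18% and 12.79%, because the total is smaller.

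The replicate numbers were not taken to pair the libraries: deviations from the time means correlated by 0.1307 between 0 and 6 h, 0.0762 between 0 and 72 h and 0.1177 between 6 and 72 h. With the replicate block the MYC start at 6 h was -0.31 (adjusted p = 0.0363).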

Other observations

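A few sites outside the naming rule were picked after their values were seen, and are given as values on the main scale. Just beyond MYC, at 10.0 kb, a weak site had 1.04 and 1.099 CPM at 0 h, 3.32 and 4.77 at 6 h, then 3.44 and 4.46 at 72 h, a rise of 1.95 at 6 h (edgeR, adjusted p = 0.000102) while the MYC start was not called. The microRNA gene MIR1208 lies within the site at 414.8 kb, which had 9.16 and 5.16 CPM at 0 h, 14.7 and 15.2 at 6 h, then 7.24 and 7.76 at 72 h. Within CCDC26, the site at 1822.5 kb fell by 1.80 at 6 h (adjusted p = 6.4e-05), from 9.36 and 9.41 CPM to 2.05 and 3.13, and the site at 1892.0 kb rose by 1.30 (adjusted p = 0.000196), from 3.05 and 3.82 CPM to 7.75 and 9.20.

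Inside CYRIB, a gene for a regulator of the actin cytoskeleton that partly lies in the interval, a site at 2148.6 kb had 0.650 and 1.05 CPM at 0 h, 1.70 and 1.61 at 6 h, then 3.31 and 3.75 at 72 h. It was called higher at 72 h by 2.02 (edgeR, adjusted p = 4.5e-05) and not at 6 h, and only the 72 h libraries had a peak there.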
